A study of Homo sapiens with 8 samples.

Results

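RAB GTPases were examined in total RNA of 2 established ovarian cancer cell lines, OVSAHO and KURAMOCHI, cultured with simvastatin or with L-778123 and hybridized, with 1 dye, to 8 arrays of the SurePrint G3 design for human genes. The 4 groups, OVSAHO with simvastatin, OVSAHO with L-778123, KURAMOCHI with simvastatin and KURAMOCHI with L-778123, held 2 arrays each. A gene was taken as a member when its symbol was RAB followed by a number and at most 1 letter and when 1 or more of the 4 groups held a probe of it well above background on both of its arrays. This gave 54 RAB genes of 16955 genes with such a probe. Untreated cells were not among the arrays analysed here. A fold change between the drugs therefore compares simvastatin with L-778123 directly, and a gene that differs may have moved under either drug. How much of each drug was used for the arrays, and for how long, is not given in the sources used here. Each group is a single cell line, and nothing says that the 2 arrays of a group came from separate cultures, so that the p-values measure the spread between arrays, which may be technical.

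RAB proteins are small GTPases that mark the membranes of the secretory and endocytic pathways and recruit motors, tethers and coats when they hold GTP. Exchange factors load them with GTP, GTPase activating proteins return them to the GDP form, and soluble chaperones take them off the membrane. They hold to membranes through geranylgeranyl groups at the carboxyl terminus, which RAB geranylgeranyl transferase adds with the help of a RAB escort protein. The geranylgeranyl donor comes from the mevalonate pathway, whose rate-limiting enzyme, HMG-CoA reductase, is the target of simvastatin. L-778123 was described in the study as an inhibitor of both a farnesyl and a geranylgeranyl transferase. The study did not say whether L-778123 also inhibits RAB geranylgeranyl transferase, and this was not tested here. The arrays measured the mRNA of the RAB genes and not the lipid modification of the proteins.

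The intensity at the 75th percentile was 324 on the dimmest array and 437 on the brightest, saturation was absent, and 51.8% to 57.5% of the 58162 probes had a signal well above background. Replicate arrays correlated at 0.995 to 0.996 over the tested probes. The 9 markers of ovarian serous carcinoma and epithelium, PAX8 and EPCAM among them, were well above background on all 8 arrays. Of 8 markers of other cell types, PTPRC, CD14 and CDH5 were above background on all 8 arrays, COL1A1 on the 4 KURAMOCHI arrays, CD3E on 1 OVSAHO array, and PECAM1, COL1A2 and DCN on none. Their part in the RAB values was not tested. All arrays lay on 1 slide with each group in its own positions, so position and group cannot be told apart.

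RAB17 and RAB19, described first below because their transcripts were lower with simvastatin, had entries in the RefSeq promoter table (GRCh38.p14). The 250 bases before the start of RAB17 lie at chr2:237590735-237590984 on the minus strand, and those of RAB19 at chr7:140403808-140404057 on the plus strand. Capitals mark CAGGTG, a sequence known as an E2-box, and GGGCGG, a GC box, on either strand.
RAB17: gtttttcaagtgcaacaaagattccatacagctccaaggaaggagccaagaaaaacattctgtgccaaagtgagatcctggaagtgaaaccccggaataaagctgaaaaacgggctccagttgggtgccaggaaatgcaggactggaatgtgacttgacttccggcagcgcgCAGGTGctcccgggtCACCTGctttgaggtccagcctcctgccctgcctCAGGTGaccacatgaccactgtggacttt
RAB19: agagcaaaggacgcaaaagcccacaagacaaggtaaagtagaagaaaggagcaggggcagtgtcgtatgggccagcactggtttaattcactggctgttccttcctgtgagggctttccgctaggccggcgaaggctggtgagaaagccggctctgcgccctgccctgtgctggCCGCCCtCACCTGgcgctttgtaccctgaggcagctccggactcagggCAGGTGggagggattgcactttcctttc
The RAB17 window held 3 E2-boxes and no GC box, and the RAB19 window held 2 E2-boxes and 1 GC box. They were the only 2 of the 42 RAB members in the table with 2 or more E2-boxes (4.76%, against 2.17% of the 13080 tested genes in the table). At least 1 E2-box was present in 6 of the 42 RAB windows (14.3%, against 16.6% of those of the tested genes). The motifs were chosen after the values of the RAB genes were seen, so these shares are a description only. A motif match is a description of letters. Of the 284 tested genes with 2 or more E2-boxes, 1.06% were called lower with simvastatin in KURAMOCHI cells and 3.87% in OVSAHO cells, against 2.94% and 5.83% of all tested genes in the table. The difference between these shares was not tested. The GC box was present in 35 of the 42 RAB windows (83.3%), against 61.9% of those of the tested genes and 42.3% of all 27305 windows, and RAB17, RAB7B and RAB6A were among the 7 without it. The E-box CACGTG, which reads the same on both strands, was in 5 RAB windows (11.9%, against 8.39% of tested genes), and TCACNCCAC, a sterol response element, was in 1, that of RAB4B (2.38%, against 0.864%). No searched motif overlapped another in the windows of RAB17 and RAB19. RAB38 and RAB39B had no entry.

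To ask which RAB genes differed between the drugs, each gene was tested with limma on its log2 intensity, scaled by subtracting the log2 intensity at the 75th percentile of the same array, and was called where the adjusted p was under 0.05 and the change was 2-fold or more. RAB17 was lower with simvastatin in both lines, RAB19 and RAB38 were called lower in KURAMOCHI cells, and RAB39B was higher in OVSAHO cells. In OVSAHO cells 1 of 54 members was called higher and 1 lower (1.85% each), against 5.69% and 5.88% of all genes. In KURAMOCHI cells 3 were called lower (5.56%, against 2.94% of all genes) and 0 higher (against 2.44%), by limma and by the two-way analysis of variance of the methods, although 11 members were higher at an adjusted p under 0.05 without the fold threshold and 16 at an unadjusted p under 0.05. On bulk RNA, a change in the share of cells that hold a transcript and a change in transcript per cell cannot be told apart.

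RAB17 is a RAB of polarized epithelial cells that acts in transcytosis through recycling endosomes. In OVSAHO cells its log2 intensity was 2.52 and 2.53 with simvastatin and 3.59 and 3.66 with L-778123. In KURAMOCHI cells it was -4.02 and -3.80 with simvastatin and -1.54 and -1.64 with L-778123. The simvastatin arrays lay below the L-778123 arrays in each line without overlap, and every KURAMOCHI array lay below every OVSAHO array. The log2 fold change was -1.10 ± 0.09 (SE, n = 2 arrays a group, limma adjusted p = 0.00036) in OVSAHO cells and -2.32 ± 0.09 (adjusted p = 0.000148) in KURAMOCHI cells. The drug contrast differed between the lines by 1.21 ± 0.13 (OVSAHO minus KURAMOCHI, adjusted p = 0.00278). That difference rested on the background correction, since it was -0.15 (adjusted p = 0.238) after normexp correction, where the fold change in KURAMOCHI cells was -1.02 with an adjusted p of 1.91e-06. A second RAB17 probe, well above background on the 4 OVSAHO arrays only, gave -1.11 (adjusted p = 0.0665) in OVSAHO cells. In KURAMOCHI cells this probe was at background, so no fold change is given there and it could not test the difference.

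RAB19, a little studied RAB placed at the Golgi, had log2 intensities of -3.65 and -3.82 with simvastatin and -3.33 and -2.96 with L-778123 in OVSAHO cells. In KURAMOCHI cells the values were -2.63 and -2.72 with simvastatin and -1.04 and -0.89 with L-778123. The groups of each line did not overlap, and the gap between the drugs was wider in KURAMOCHI cells. The log2 fold change was -1.71 ± 0.14 (adjusted p = 0.000852) in KURAMOCHI cells. In OVSAHO cells it was -0.59 ± 0.14 (adjusted p = 0.0174), which was under the fold threshold and was -0.08 (adjusted p = 0.413) after normexp correction. The contrasts differed by 1.12 ± 0.20 (adjusted p = 0.0137), and by 0.97 after normexp correction and 0.94 without OVSAHO L-778123 replicate 1, both past the adjusted p but under the fold threshold.

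RAB38 serves, with RAB32, the biogenesis of melanosomes and other lysosome-related organelles. Its log2 intensity in KURAMOCHI cells was 0.36 and 0.49 with simvastatin and 1.54 and 1.49 with L-778123. In OVSAHO cells it was -1.66 and -1.65 with simvastatin and -0.85 and -0.81 with L-778123. The order was the same in both lines, with the simvastatin arrays lower and the replicates close together. The log2 fold change was -1.09 ± 0.07 (adjusted p = 0.000368) in KURAMOCHI cells and -0.82 ± 0.07 (adjusted p = 0.000341) in OVSAHO cells. The difference between these contrasts, 0.27 ± 0.09, did not pass the test (adjusted p = 0.0959).

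RAB39B, an X-linked RAB best known from neurons, was the only member called higher with simvastatin. In OVSAHO cells its log2 intensity was 0.63 and 0.82 with simvastatin and -0.69 and -0.93 with L-778123, and the groups did not overlap. The log2 fold change was 1.53 ± 0.14 (adjusted p = 0.000539), or 2.89-fold. In KURAMOCHI cells the values lay between -6.55 and -6.26 and were not well above background on any of the 4 arrays, so no fold change is given there. The test of the difference between the lines (1.48, adjusted p = 0.00595) thus sets OVSAHO cells against a line in which the transcript was not measured above background.

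**Figure D1:**
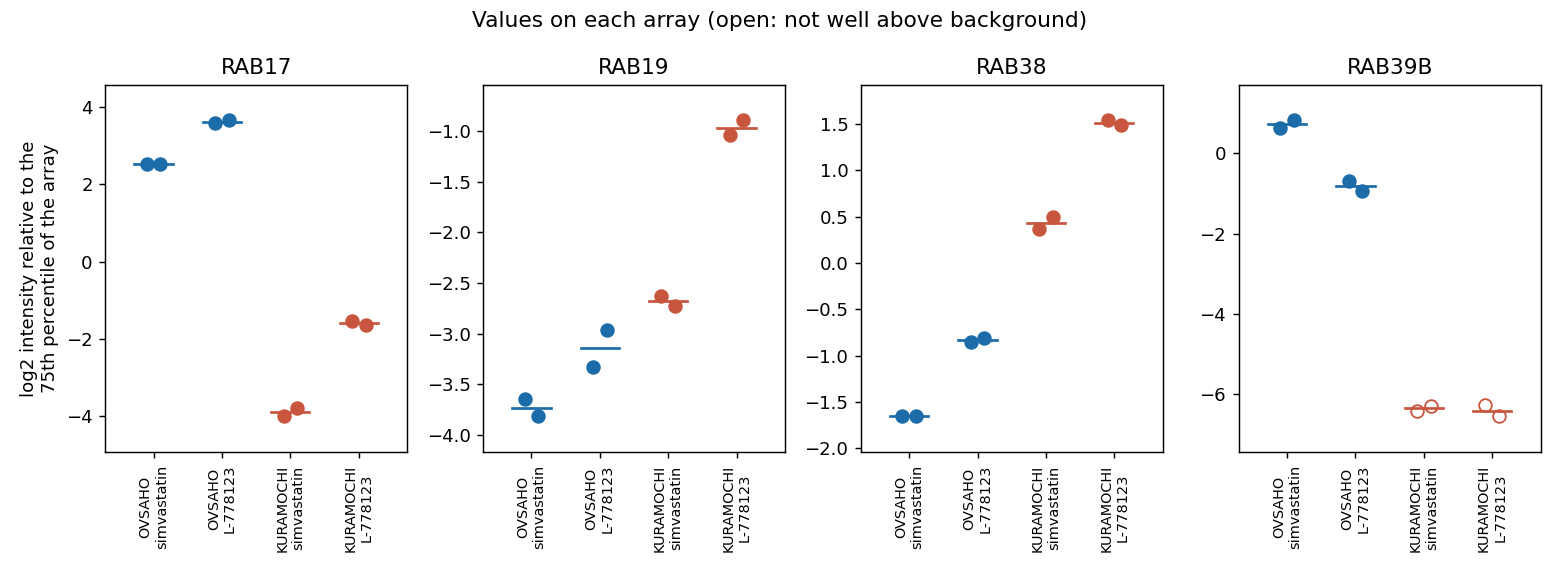
Log2 intensity, scaled to the 75th percentile of each array (vertical axis, scaled separately for each gene) for the 4 RAB genes called between the drugs, with 1 point per array and a bar at the mean of 2 arrays. RAB17, RAB19 and RAB38 are lower with simvastatin in both lines, and the open RAB39B points of KURAMOCHI cells are not well above background.

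At an adjusted p under 0.05 alone, 21 members were higher with simvastatin in OVSAHO cells (38.9%, against 26.4% of all genes) and 11 were lower (20.4%, against 27.5%). In KURAMOCHI cells 11 were higher (20.4%, against 17.1%) and 9 lower (16.7%, against 18.4%). The 9 include RAB27B, which was not well above background on any KURAMOCHI array. The median log2 fold change of the members was 0.12 in OVSAHO cells and 0.02 in KURAMOCHI cells, beside 0.01 and 0.01 over all genes tested. Above 0 were 37 of 54 members in OVSAHO cells (against 8664 of 16955 genes) and 30 in KURAMOCHI cells (against 8717). The median size of the change was 0.31 in OVSAHO and 0.23 in KURAMOCHI cells, beside 0.33 and 0.23 over all genes, with values between -1.10 and 1.53 in OVSAHO cells and between -2.32 and 0.63 in KURAMOCHI cells. Higher in both lines were 9 members (16.7%, against 10.6% of all genes), RAB6A, RAB13, RAB24, RAB26, RAB33A, RAB36, RAB37, RAB40B and RAB40C. Lower in both lines were 7 (13%, against 12.4%), RAB3A, RAB8A, RAB15, RAB17, RAB19, RAB23 and RAB38. RAB35 was the 1 member that passed in opposite directions, and 19 (35.2%, against 36.9%) passed in neither line. With each of the 8 arrays left out in turn, 22 of the 32 members that passed in OVSAHO cells stayed past the adjusted p every time, and 9 of the 20 in KURAMOCHI cells did, RAB8A, RAB17, RAB19, RAB24, RAB36, RAB37, RAB38, RAB40B and RAB40C.

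**Figure D2:**
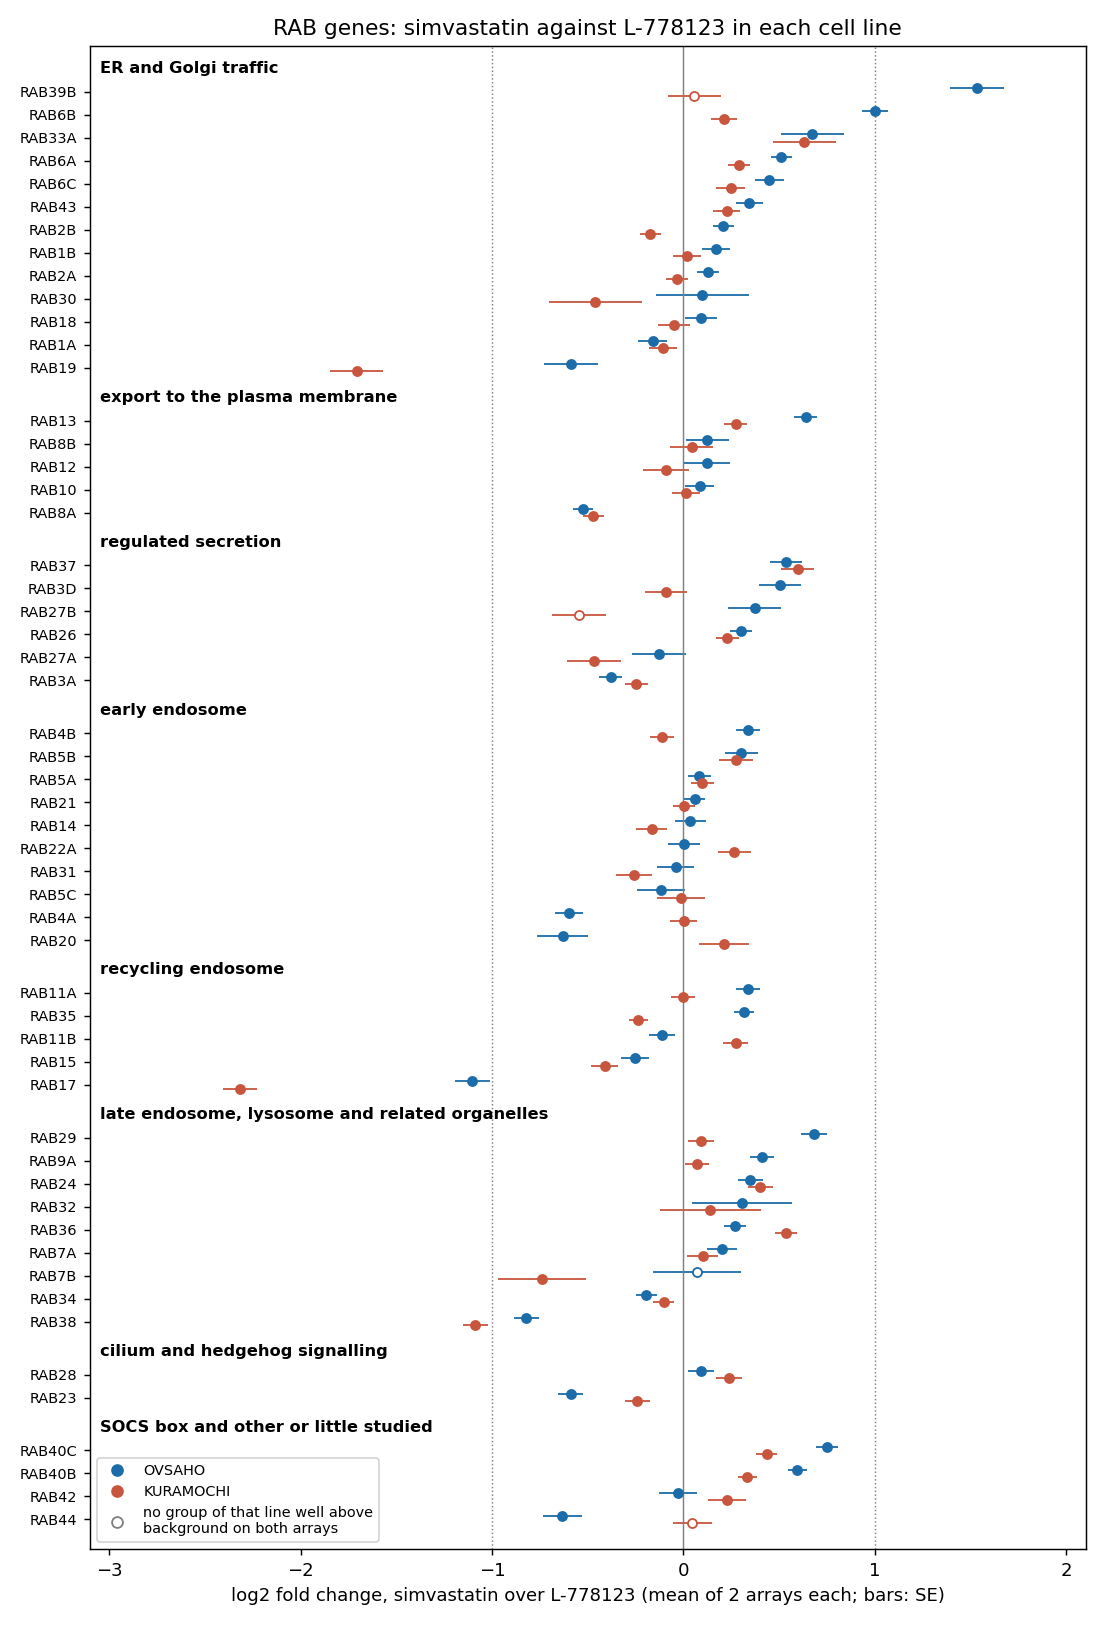
Log2 fold change of simvastatin over L-778123 (horizontal axis) for the 54 RAB genes, by role, with OVSAHO in blue and KURAMOCHI in red. Bars are SE from the fit, dotted lines mark a 2-fold change, and open points mark genes that no group of that line held well above background on both arrays. Most points lie within the dotted lines, and RAB17, RAB19 and RAB38 lie beyond the lower one in KURAMOCHI cells.

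Among the 13 measured RABs of the endoplasmic reticulum and Golgi, 7 were higher and 1 was lower at the adjusted p in OVSAHO cells (53.8% and 7.69%, against 26.4% and 27.5% of all genes), and 2 were higher and 1 lower in KURAMOCHI cells (15.4% and 7.69%, against 17.1% and 18.4%). RAB6A, which drives traffic from endosomes and the Golgi back towards the endoplasmic reticulum, had log2 intensities of 2.52 and 2.53 with simvastatin and 2.04 and 1.98 with L-778123 in OVSAHO cells. In KURAMOCHI cells it had 2.69 and 2.75 with simvastatin and 2.43 and 2.44 with L-778123. It was higher with simvastatin in both lines without overlap, by 0.51 ± 0.06 (adjusted p = 0.000971) and 0.29 ± 0.06 (adjusted p = 0.0127). The probe of RAB6C, a retrocopy whose sequence is near that of RAB6A, gave 0.45 and 0.25 and cannot be taken as independent of RAB6A. The 7 counted as higher in OVSAHO cells include both. RAB6B, the RAB6 form best known from brain, was 1.70 and 1.72 with simvastatin and 0.71 on both arrays with L-778123 in OVSAHO cells. Its fold change of 1.00 ± 0.07 (adjusted p = 0.000208) lay just under the 2-fold threshold, and it was called higher with quantile normalization. In KURAMOCHI cells its log2 fold change was 0.21 (adjusted p = 0.0661), and the contrasts differed by 0.79 ± 0.10 (adjusted p = 0.00476). RAB33A, a Golgi RAB that binds the autophagy protein ATG16L1, was higher in both lines (0.67 ± 0.16 and 0.63 ± 0.16), though not past the adjusted p with each array left out. RAB1A, which acts between the endoplasmic reticulum and the Golgi, passed in neither line with its brightest probe. It was 5.21 and 5.29 with simvastatin and 5.47 and 5.36 with L-778123 in OVSAHO cells, and 5.49, 5.36, 5.53 and 5.53 in the same order in KURAMOCHI cells (log2 fold changes of -0.16 ± 0.07 and -0.11 ± 0.07). A dimmer RAB1A probe gave -0.20 in OVSAHO cells and passed there (adjusted p = 0.034), as did the first probe after normexp correction (-0.20, adjusted p = 0.0414).

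Of the 5 RABs of export to the plasma membrane, 1 was higher and 1 lower in each line (20% each, against 26.4% and 27.5% of all genes in OVSAHO cells and 17.1% and 18.4% in KURAMOCHI cells). RAB8A, which carries membrane to the cell surface and the primary cilium, was 3.96 and 3.97 with simvastatin and 4.48 and 4.51 with L-778123 in OVSAHO cells. In KURAMOCHI cells it was 2.58 and 2.54 with simvastatin and 3.05 and 3.01 with L-778123. It was lower with simvastatin in both lines, at -0.52 ± 0.05 (adjusted p = 0.000743) and -0.47 ± 0.05 (adjusted p = 0.0023), and the difference between the lines was -0.05 ± 0.07 (adjusted p = 0.64). RAB13, a RAB of tight junctions, moved the other way, with log2 fold changes of 0.64 ± 0.06 (adjusted p = 0.000564) and 0.27 ± 0.06 (adjusted p = 0.0195). RAB10, which delivers glucose transporter vesicles, passed in neither line. It was 4.54 and 4.60 with simvastatin and 4.57 and 4.41 with L-778123 in OVSAHO cells, and 4.28, 4.20, 4.24 and 4.22 in the same order in KURAMOCHI cells, so the drug groups overlapped in both lines.

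Of the 6 measured RABs of regulated secretion, 3 were higher and 1 lower in OVSAHO cells (50% and 16.7%, against 26.4% and 27.5% of all genes), and 2 were higher and 2 lower in KURAMOCHI cells (33.3% each, against 17.1% and 18.4%). RAB37 and RAB26, both of secretory granules, were higher in both lines (0.54 and 0.60 for RAB37, 0.30 and 0.23 for RAB26), while RAB3A, the RAB of synaptic vesicles, was lower in both (-0.38 and -0.25). In KURAMOCHI cells the results of RAB26 (adjusted p = 0.0346) and RAB3A (adjusted p = 0.0282) did not stay past the adjusted p with each array left out. RAB3D, of zymogen and other granules, was 0.49 and 0.41 with simvastatin and -0.13 and 0.02 with L-778123 in OVSAHO cells (0.51 ± 0.11, adjusted p = 0.012). In KURAMOCHI cells its values were -2.27 and -2.37 with simvastatin and -2.36 and -2.10 with L-778123, and the groups overlapped. RAB27A, which docks exosomes and lysosome-related organelles, did not pass in OVSAHO cells (-1.20 and -1.23 with simvastatin, -1.13 and -1.05 with L-778123) or in KURAMOCHI cells (-3.66 and -3.92, against -3.50 and -3.14, adjusted p = 0.0545). Its paralog RAB27B was -2.01 and -2.18 with simvastatin and -2.37 and -2.57 with L-778123 in OVSAHO cells (adjusted p = 0.0733). RAB27B passed as lower in KURAMOCHI cells (adjusted p = 0.0328) and is 1 of the 2 counted as lower there. However, it was not well above background on any KURAMOCHI array, with values from -6.68 to -5.89, so no fold change is given.

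The early endosomal RABs moved by less than 2-fold. Of the 10 early endosomal RABs, 2 were higher (RAB4B and RAB5B) and 2 lower (RAB4A and RAB20) in OVSAHO cells (20% each, against 26.4% and 27.5% of all genes). In KURAMOCHI cells 0 passed by limma (against 17.1% of all genes higher and 18.4% lower), and 3 had an unadjusted p under 0.05. RAB5A, which governs fusion of early endosomes, was 3.43 and 3.42 with simvastatin and 3.39 and 3.30 with L-778123 in OVSAHO cells, and 3.57 and 3.54 against 3.43 and 3.48 in KURAMOCHI cells (0.08 ± 0.06 and 0.10 ± 0.06). The paralogs RAB4A and RAB4B, which act in fast recycling, moved in opposite directions in OVSAHO cells, at -0.60 ± 0.07 and 0.34 ± 0.06. RAB20, an endosomal RAB that hypoxia is known to induce, was 0.29 and 0.11 with simvastatin and 0.82 and 0.84 with L-778123 in OVSAHO cells (-0.63 ± 0.13, adjusted p = 0.0107, but 0.0567 without OVSAHO simvastatin replicate 2). In KURAMOCHI cells it was -3.49 and -3.65 with simvastatin and -3.95 and -3.62 with L-778123, and the groups overlapped.

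Beside RAB17, the recycling RABs RAB11A, RAB11B, RAB15 and RAB35 moved by less than 2-fold. RAB11A, the main RAB of the recycling endosome, was 1.63 and 1.57 with simvastatin and 1.29 and 1.24 with L-778123 in OVSAHO cells (0.34 ± 0.06, adjusted p = 0.0073), and between 1.03 and 1.12 on the 4 KURAMOCHI arrays, where the groups overlapped. RAB11B passed as higher in KURAMOCHI cells (0.27 ± 0.07, adjusted p = 0.0288), though not under all alternatives. RAB35, which returns cargo to the cell surface, was higher with simvastatin in OVSAHO cells (0.31 ± 0.05, adjusted p = 0.00452) and lower in KURAMOCHI cells (-0.24 ± 0.05, adjusted p = 0.0205). The contrasts of RAB35 differed by 0.55 ± 0.07 (adjusted p = 0.00581), while the call in KURAMOCHI cells was lost when any 1 of the KURAMOCHI arrays was left out (adjusted p of 0.0774 to 0.0875). RAB25, a member of the RAB11 subfamily studied in ovarian cancer, was not well above background on any of the 8 arrays, with values from -6.98 to -6.31.

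Of the 9 RABs of late endosomes, lysosomes and related organelles, 4 were higher and 2 lower in OVSAHO cells (44.4% and 22.2%, against 26.4% and 27.5% of all genes), and 2 were higher and 1 lower in KURAMOCHI cells (22.2% and 11.1%, against 17.1% and 18.4%). RAB7A, which drives late endosome and lysosome fusion, passed in neither line. It was 5.52 and 5.64 with simvastatin and 5.34 and 5.42 with L-778123 in OVSAHO cells (0.20 ± 0.08, adjusted p = 0.089), and 5.23 and 5.07 against 5.05 on both arrays in KURAMOCHI cells (0.10 ± 0.08). RAB29, which recruits the kinase LRRK2, was higher in OVSAHO cells (0.68 ± 0.07, adjusted p = 0.000719) and not past the test in KURAMOCHI cells (0.09), with a difference of 0.59 ± 0.10 (adjusted p = 0.0107). RAB9A, of the route from late endosomes to the Golgi, likewise passed in OVSAHO cells (0.41 ± 0.06), with a difference of 0.34 ± 0.09 (adjusted p = 0.0402). RAB24, linked to autophagy, was higher in both lines (0.35 and 0.40), as was RAB36 (0.27 and 0.54). Outside these groups, RAB40B and RAB40C, which carry a SOCS box for ubiquitin ligase assembly, were higher in both lines, at 0.60 ± 0.05 and 0.33 ± 0.05 for RAB40B and 0.75 ± 0.06 and 0.43 ± 0.06 for RAB40C. RAB23, a negative regulator of hedgehog signalling, was lower in both, at -0.59 ± 0.07 (adjusted p = 0.00107) and -0.24 ± 0.07 (adjusted p = 0.0383). In KURAMOCHI cells its value ranged from -0.285 to -0.14 over the alternatives, and it did not stay past the adjusted p in all of them.

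The contrast between the drugs differed between the lines for 20 members at an adjusted p under 0.05. It was more positive in OVSAHO cells for 15 of them (27.8%, against 13.4% of all genes) and more negative for 5 (9.26%, against 14%). With the 2-fold threshold, 3 were called more positive (5.56%, against 4.29%), RAB17, RAB19 and RAB39B, and 0 more negative (against 3.3%) by limma and by the two-way analysis of variance, although 6 had an unadjusted p under 0.05 in that direction. The differences of RAB4A, RAB6B, RAB17, RAB19, RAB29, RAB35 and RAB39B stayed past the adjusted p with each array left out in turn. After normexp correction the RAB17 difference was -0.148 (limma adjusted p = 0.238). With the mean over its probes, 1 of them at background in KURAMOCHI cells, the RAB17 difference was 0.565 (limma adjusted p = 0.204). The median difference over the members was 0.16, beside -0.01 over all genes tested. Of the 15, RAB27B and RAB39B were not well above background in KURAMOCHI cells, and of the 5, RAB44 was not.

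As over all genes tested, more RAB genes were called between the cell lines than between the drugs. The line contrast set 4 arrays against 4, and each drug contrast 2 against 2. Averaged over drugs, 16 members were called higher in OVSAHO cells (29.6%, against 18.3% of all genes) and 9 higher in KURAMOCHI cells (16.7%, against 16.4%). At the adjusted p alone, 25 were higher (46.3%, against 42.4%) and 19 lower (35.2%, against 40.5%). All 6 measured RABs of regulated secretion had a higher mean in OVSAHO cells, as did all 5 recycling endosome RABs and 8698 of 16955 genes tested. Among the 6, RAB26 differed by only 0.03 (limma adjusted p = 0.4945). The other secretion RABs include 4 that were called, RAB3A, RAB3D, RAB27A and RAB27B (66.7% of the 6, against 18.3% of all genes). RAB3D differed by 2.47 ± 0.08 (adjusted p = 1.27e-06) and RAB27A by 2.41 ± 0.10 (adjusted p = 3.87e-06) on the log2 scale. For members at background in a line, a bound compared the brighter group's mean with a floor for the dim group, which averaged over its arrays each array's lowest signal well above background or of the probe's own signal where that was higher. These bounds hold for the processed signal and depend on its background correction. RAB27B was at least 5.07-fold higher in OVSAHO cells with simvastatin and at least 4.19-fold higher with L-778123, while after normexp correction with its offset the line difference was smaller, at 1.11 on the log2 scale. RAB17 was higher in OVSAHO cells by 5.82 ± 0.06 (adjusted p = 7.52e-08), which was the highest value among members well above background on all arrays. RAB20 followed with 4.19 ± 0.09 (adjusted p = 4.17e-07). RAB39B was at least 35.8-fold higher with simvastatin and at least 13.2-fold higher with L-778123 in the processed signal, and 2.62 on the log2 scale after normexp correction, which is under both bounds.

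RAB44, a large atypical RAB known from immune cells, was 0.59 and 0.56 with simvastatin and 1.22 and 1.19 with L-778123 in OVSAHO cells. It was not well above background on any KURAMOCHI array (-6.56 to -6.30), which gave at least 32.3-fold with simvastatin and at least 53.5-fold with L-778123 in the processed signal, and 3.41 on the log2 scale after normexp correction, which is under both bounds. The probes of RAB44 disagreed in size, since a second gave a log2 difference of 5.72 between the lines and another, well above background on all 8 arrays, gave 0.63 (adjusted p = 0.00489). In OVSAHO cells RAB44 was lower with simvastatin (-0.63 ± 0.10, adjusted p = 0.00408), while the probe well above background on all 8 arrays gave -0.39 (adjusted p = 0.131).

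Higher in KURAMOCHI cells were RAB7B, RAB38, RAB19, RAB4B, RAB2A, RAB6B, RAB14, RAB2B and RAB8B. RAB7B, which acts between late endosomes and the Golgi, was -2.51 and -2.64 with simvastatin and -1.82 and -1.84 with L-778123 in KURAMOCHI cells. In OVSAHO cells it was -4.86 and -4.56 with simvastatin and -5.12 and -4.44 with L-778123, and only 1 of these 4 arrays was well above background. With simvastatin it was at least 4.04-fold higher in KURAMOCHI cells in the processed signal, and after normexp correction the line difference was -0.96. RAB38 was higher in KURAMOCHI cells by 2.21 on the log2 scale (OVSAHO minus KURAMOCHI -2.21 ± 0.05, adjusted p = 3.53e-07). After normexp correction the line difference of RAB20 was 2.84, of RAB27A 1.27, of RAB3D 1.72, of RAB17 4.60 and of RAB19 -0.90, and these and those of RAB27B, RAB39B and RAB44 were past the adjusted p in the same direction. RAB5A, RAB1A and RAB10 differed by less than 0.3 in size.

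**Figure D3:**
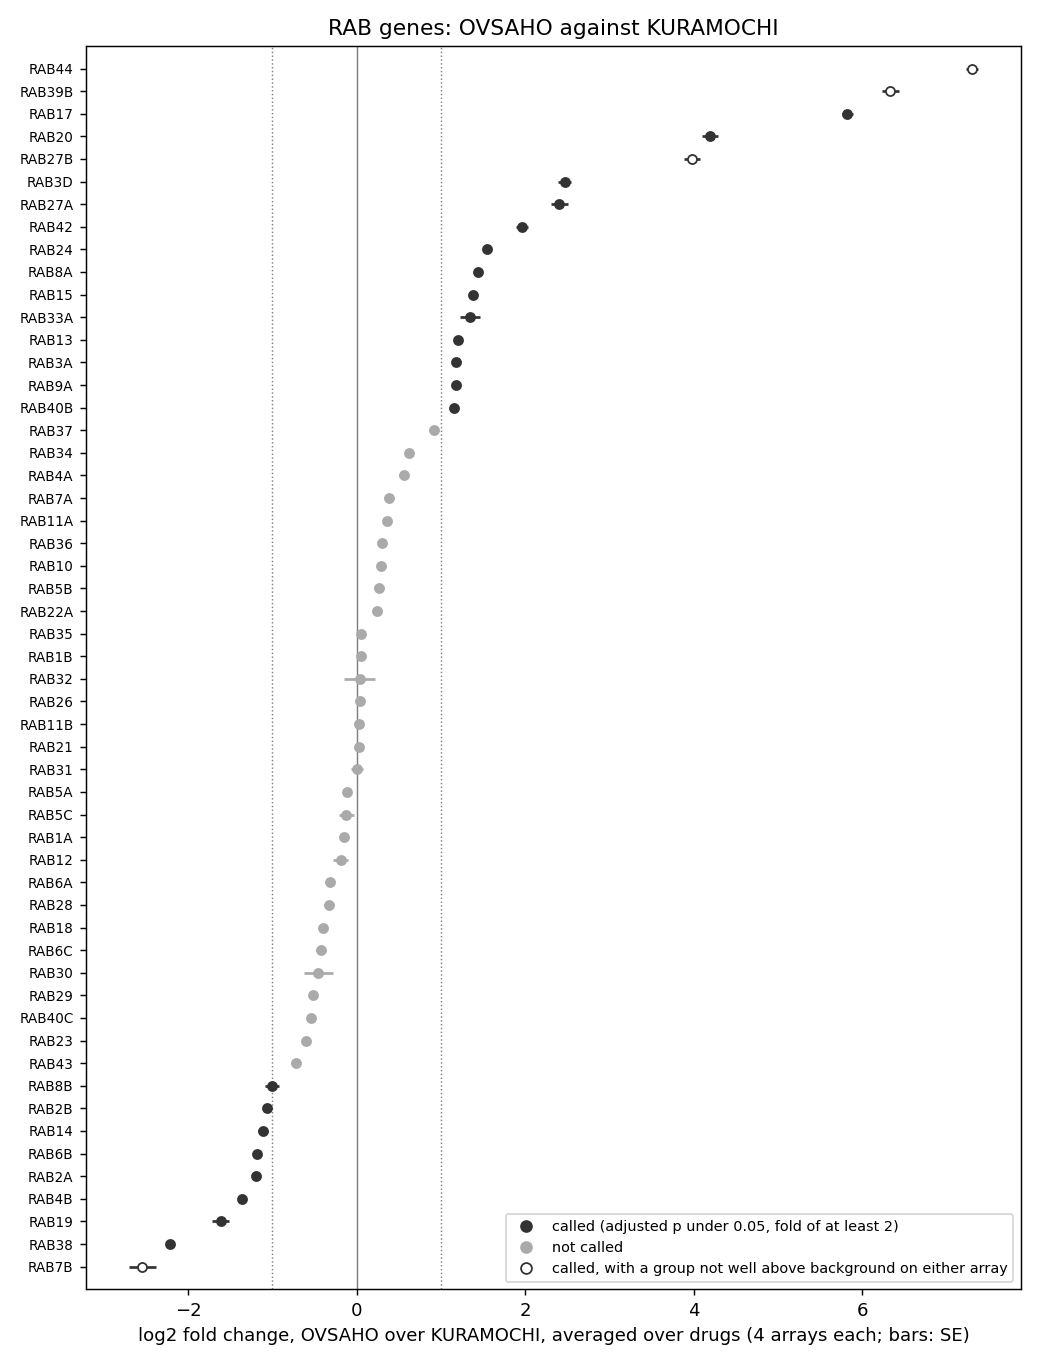
Log2 fold change of OVSAHO over KURAMOCHI averaged over drugs (horizontal axis, bars SE, 4 arrays a line) for the 54 RAB genes in order of the value. Dark points are called, grey points are not, open points mark genes with a group not well above background on either array, and dotted lines mark a 2-fold change. RAB44, RAB39B, RAB17, RAB20 and RAB27B stand at the OVSAHO end and RAB7B, RAB38 and RAB19 at the KURAMOCHI end.

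The enzymes and carriers that prenylate RABs and extract them from membranes moved by less than 2-fold between the drugs. Of the 7 genes, 0 were called in either line by limma (3 and 0 had an unadjusted p under 0.05 in OVSAHO and KURAMOCHI cells). Of all genes, 5.69% were called higher and 5.88% lower in OVSAHO cells, and 2.44% and 2.94% in KURAMOCHI cells. At the adjusted p alone 2 of the 7 passed, both higher in OVSAHO cells (28.6%, against 26.4% of all genes), among them RABIF, a RAB-binding chaperone, at 0.67 ± 0.11. RABGGTB, the catalytic subunit of RAB geranylgeranyl transferase, was 4.80 and 4.84 with simvastatin and 5.11 and 4.94 with L-778123 in OVSAHO cells (-0.21 ± 0.09, adjusted p = 0.121), and 3.49 and 3.28 against 3.47 and 3.48 in KURAMOCHI cells (-0.09 ± 0.09). RABGGTA, its partner subunit, had log2 fold changes of 0.16 and 0.02, the escort proteins CHM and CHML had -0.01 and -0.11 and -0.09 and 0.14, and none of these passed.

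The regulators and effectors of the RABs were counted beside the shares of all genes. Of 33 exchange factors, 4 were called higher in OVSAHO cells (12.1%, against 5.69% of all genes) and 0 lower (against 5.88%) by limma, where 5 were lower at the adjusted p alone, and 0 were called in KURAMOCHI cells, where 11 were higher and 4 lower at the adjusted p alone and 12 and 4 at an unadjusted p under 0.05 (of all genes, 2.44% were called higher and 2.94% lower there). RIN1, an exchange factor of RAB5, was higher by 1.49 ± 0.09, RAB3IL1, which loads RAB8, by 1.20 ± 0.09 and MADD, which loads RAB3 and RAB27, by 1.04 ± 0.06 in OVSAHO cells. DENND2A was also called there, but neither OVSAHO group was well above background on both arrays, so no fold change is given. Of 34 GTPase activating proteins, 3 were called higher and 2 lower in OVSAHO cells (8.82% and 5.88%, against 5.69% and 5.88% of all genes), and 1 higher and 2 lower in KURAMOCHI cells (2.94% and 5.88%, against 2.44% and 2.94%). TBC1D10C was higher in both lines (2.11 ± 0.10 and 1.21 ± 0.10) and RABGAP1L lower in both (-1.07 ± 0.06 and -1.16 ± 0.06). TBC1D10A, which acts on RAB27A and RAB35, was higher by 1.38 ± 0.07 in OVSAHO cells, and TBC1D2, which acts on RAB7, was lower there (-1.97 ± 0.06). Of 42 effectors, 6 were called higher and 2 lower in OVSAHO cells (14.3% and 4.76%, against 5.69% and 5.88%), and 1 higher and 0 lower by limma in KURAMOCHI cells (2.38% higher, against 2.44%), where 11 were lower at the adjusted p alone. MICAL1, an actin oxidase that binds RAB8 and other RABs, was higher by 1.93 ± 0.11 in OVSAHO cells and RILP, which joins RAB7 to dynein, by 1.56 ± 0.11. The RAB27 effectors SYTL3 and EXPH5 went in opposite directions in OVSAHO cells, at 1.35 ± 0.16 and -1.56 ± 0.09, and SYTL3 was also higher in KURAMOCHI cells (1.06 ± 0.16).

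The ARF family, small GTPases of vesicle coats, served as a comparison. Of 18 ARF family genes 0 were called in either line by limma. Of all genes, 5.69% were called higher and 5.88% lower in OVSAHO cells, and 2.44% and 2.94% in KURAMOCHI cells. At the adjusted p alone, 1 ARF gene was higher and 10 were lower in OVSAHO cells (5.56% and 55.6%, against 26.4% and 27.5% of all genes). In KURAMOCHI cells 4 were higher and 1 lower (22.2% and 5.56%, against 17.1% and 18.4%). At an unadjusted p under 0.05, 1 ARF gene was higher and 11 lower in OVSAHO cells, and 6 were higher and 2 lower in KURAMOCHI cells. The median log2 fold change in OVSAHO cells was 0.12 for the RAB and -0.31 for the ARF genes, and in KURAMOCHI cells it was 0.02 and 0.00. Under the other scalings the RAB median ranged from 0.12 to 0.15 in OVSAHO cells and from 0.02 to 0.04 in KURAMOCHI cells.

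**Figure D4:**
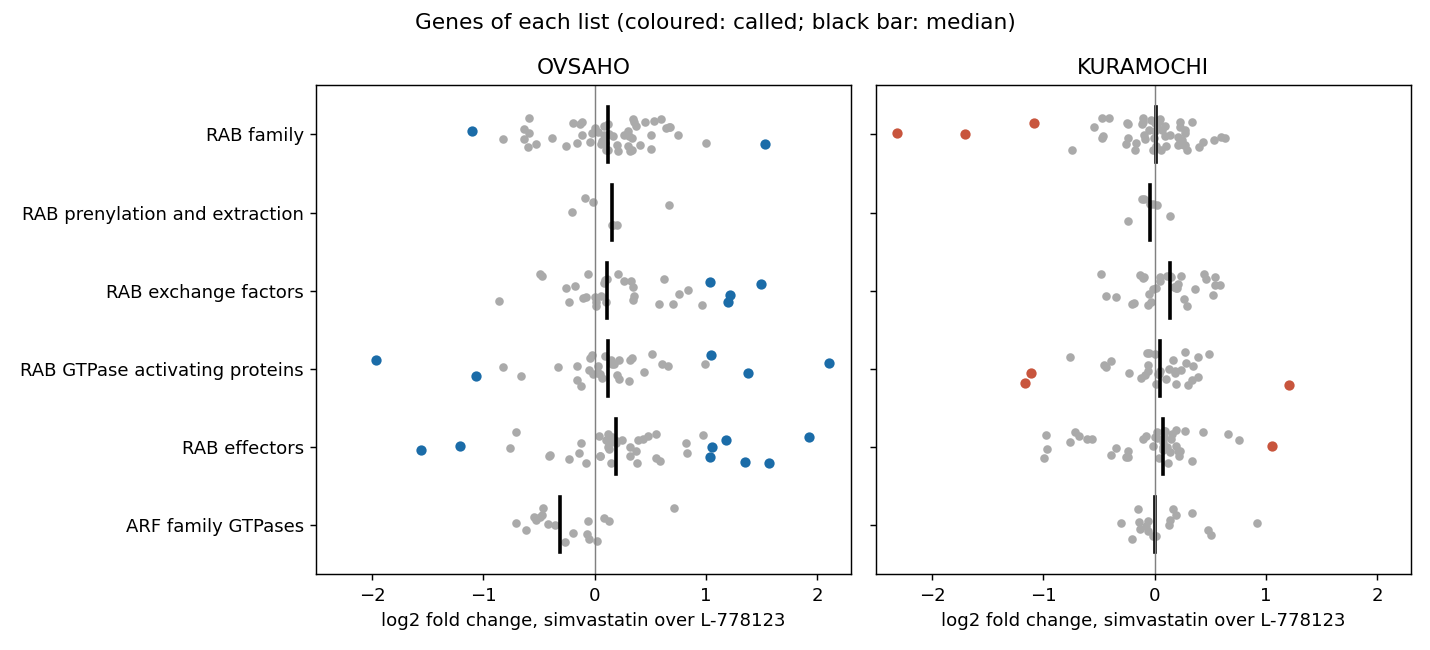
Log2 fold change of simvastatin over L-778123 (horizontal axis) in OVSAHO and KURAMOCHI cells for the RAB genes, the genes that prenylate or regulate them, their effectors, and the ARF family. Each point is 1 gene, colored points are called, and black bars are medians. In OVSAHO cells the median is 0.12 for the RAB genes and -0.31 for the ARF genes.

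Of 64 RAB symbols in the annotation, 62 had a named probe, and 8 of these, RAB3B, RAB3C, RAB6D, RAB9B, RAB25, RAB33B, RAB39A and RAB41, had no probe well above background on any array. Of the 54 members, 50 were well above background on all 8 arrays, and the other 4 were RAB7B, RAB27B, RAB39B and RAB44. A count over the members leaves out those 8 genes, since a gene entered only where at least 1 group held it above background.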

How the data were processed

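Feature Extraction 11.5.1.1, per the labels, produced the deposited files, 1 per array, whose processed signal is an intensity corrected by the authors' software within the array. A further deposited table, with linear intensity values that were quantile normalized as its columns show, served as an alternative. Control and outlier spots (58 to 99 an array) were left out, values were taken as log2 intensity minus that of the array's 75th percentile, and 33753 probes passed the filter on background. Symbols came from RefSeq accessions (24768 of 50069 identifiers matched). A gene took its probe with the highest mean. Levels of different probes were not compared. Fits used limma 3.58.1 in R 4.3.3 (lmFit, eBayes, 1 mean per group, Benjamini-Hochberg over all 33753 probes) and were tested on simulated data. Bounds set the bright group's mean against the dim arrays' lowest signals well above background, averaged.

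Members, roles and lists were chosen with earlier results of these data known. Genes were named when called between the drugs, when among the 8 with the largest called line difference, or as RAB1A, RAB5A, RAB6A, RAB7A, RAB8A, RAB10, RAB11A, RAB25, RAB27A and RAB27B. Of other lists, called members, at most 4 each, were named. The other RAB genes, the prenylation genes named and the promoter motifs were chosen after their values were seen. A planned grouping by carboxyl-terminal motif was not run. Values of 1 prenylation gene and of 1 further gene family are not reported here. The normexp alternative (offset 50) used the median signal of a spot. Other alternatives were filters on dim probes, normalizations, a floor, a fold threshold of 1.5, the arrays of 1 line alone, probe means, a replicate block, Tukey's test after the two-way analysis of variance that the methods name, and each array left out. Figures were drawn with matplotlib.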

Additional observations from a re-analysis of the deposited data

Results flagged for a closer look

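For 20 RAB genes the log2 contrast of simvastatin against L-778123 differed between the lines at a limma adjusted p under 0.05 for the interaction, which put them here. Values are OVSAHO minus KURAMOCHI. The contrast was more positive in OVSAHO cells for RAB39B by 1.48, RAB17 by 1.21, RAB19 by 1.12, RAB27B by 0.92, RAB6B by 0.79, RAB3D by 0.60, RAB29 by 0.59, RAB35 by 0.55, RAB4B by 0.45, RAB2B by 0.38, RAB13 by 0.37, RAB9A by 0.34, RAB11A by 0.34, RAB40C by 0.32 and RAB40B by 0.26. It was more negative for RAB20 (-0.84), RAB44 (-0.68), RAB4A (-0.60), RAB11B (-0.38) and RAB23 (-0.35). The values of RAB27B, RAB39B and RAB44 rest on KURAMOCHI arrays that were not well above background, and 7 of the 20 stayed past the adjusted p with each array left out in turn. The difference of RAB17 did not pass after normexp correction or with the mean over its probes. Groups of 2 arrays were too small to look for single outlying arrays.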

How the results depend on the processing

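The calls of RAB17 as lower in both lines and of RAB19 and RAB38 as lower in KURAMOCHI cells were made under each alternative at the 2-fold threshold, and that of RAB39B as higher in OVSAHO cells under each one that kept its probe. The count called higher in OVSAHO cells was 4 with no filter on dim probes (RAB33B, RAB3B and RAB3C joined, all below background), 0 with probes well above background on all arrays, and 2, with RAB6B, under quantile normalization, the percentile over bright probes and the authors' table. At a fold threshold of 1.5, 7 were called higher and 7 lower in OVSAHO cells, 2 higher in KURAMOCHI cells, and 7 more positive and 3 more negative for the difference between lines. The share of all genes called at a fold of 1.5 was not counted, so these counts cannot be set against it. Normexp correction left 1 gene called more positive and 4 called higher in KURAMOCHI cells than in OVSAHO cells. With each array left out in turn, the counts ranged from 1 to 2 higher in OVSAHO cells (2, with RAB6B, without OVSAHO simvastatin replicate 1 or L-778123 replicate 2), from 3 to 4 more positive and from 0 to 1 more negative (RAB20, without KURAMOCHI L-778123 replicate 2), and from 8 to 9 higher in KURAMOCHI cells, while 1 lower in OVSAHO, 3 lower in KURAMOCHI and 16 higher in OVSAHO than KURAMOCHI cells kept their number. At the adjusted p alone, 1 to 9 of 32 calls in OVSAHO cells, 4 to 11 of 20 in KURAMOCHI cells, 10 to 12 of 20 differences and 0 to 2 of 44 line differences were lost with an array left out, and 7, 10, 4 and 1 were lost under the two-way analysis of variance.

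Apart from the RAB17 difference, -0.148 under normexp, the values that changed sign were small or came from dim probes. Under normexp they were 0.004 for the RAB5A difference, and in KURAMOCHI cells 0.077 for RAB27B, -0.015 for RAB10 and 0.025 for RAB11A. With quantile normalization and the authors' table the values in KURAMOCHI cells were -0.050 and -0.047 for RAB39B, -0.065 and -0.063 for RAB44 and 0.000 in both for RAB11A, the last being 0.005 with the percentile over bright probes, and the RAB7A difference was -0.007 and -0.011. The floor gave 0.095 for RAB27B in KURAMOCHI and -0.011 for RAB7B in OVSAHO cells. With each array left out, the values in KURAMOCHI cells ranged from -0.085 to 0.20 for RAB39B, from -0.085 to 0.176 for RAB44, from -0.047 to 0.043 for RAB11A, from -0.025 to 0.050 for RAB10 and from -0.223 to 0.039 for RAB3D, those of RAB7B in OVSAHO cells from -0.273 to 0.410, and the differences from -0.064 to 0.032 for RAB5A, from -0.122 to 0.013 for RAB1A and from -0.008 to 0.151 for RAB10. The causes were not tested. Over the alternatives, 161 of the single gene values fell below the threshold in the contrasts and 127 in the differences, where 1917 and 379 kept direction and side.

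Differences between replicates correlated at 0.001 to 0.056 between groups, so arrays with the same replicate number showed little shared shift. The labels do not say whether the replicate number pairs arrays that were prepared together, and these values cannot decide it. At the 2-fold threshold, the fit with the replicate number as a block gave the same counts of calls as the fit without the pairing (1 higher and 1 lower in OVSAHO, 0 and 3 in KURAMOCHI, 3 and 0 for the difference, 16 and 9 between the lines). At the adjusted p alone, the block lost 1 of 32 in OVSAHO cells, 6 of 20 in KURAMOCHI cells, 9 of 20 differences and 2 of 44 line differences. With 2 arrays a group, and dim probes for RAB7B, RAB27B, RAB39B and RAB44 in 1 line, small differences could not be resolved.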
